A study of Mus musculus with 95 samples.

Results

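Transcripts of 8 genes of the extracellular matrix were followed in mouse lung: the collagen chains Col1a1, Col1a2, Col3a1, Col6a1 and Col6a2, elastin (Eln), the latent TGF-beta binding protein Ltbp4 and osteoglycin (Ogn). The genes were taken as a named set, and every probe set that the platform annotation pairs with exactly 1 of them was kept, whatever its values. This gave 15 of the 12487 probe sets on the array: 3 for Col3a1, 1 each for Col6a2 and Ltbp4, and 2 for each other gene. Single-gene probe sets on the array named 8252 genes in all. Where a gene has several probe sets they are called brighter or dimmer by their mean over all arrays.

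The study asked how lung transcripts change in mice that share a cage with an infected animal carrying Pneumocystis murina, a lung fungus of mice. Lung homogenates were hybridised to 95 Affymetrix arrays, 60 from exposed and 35 from unexposed mice, all labelled as females of 8 weeks. Exposed C57BL arrays numbered 8, 8, 6, 3, 10, 10 and 3 at days 7, 14, 21, 32, 34, 41 and 75, and unexposed C57BL arrays numbered 4, 6, 5, 2, 5 and 5 at days 7, 14, 21, 32, 34 and 41. Exposed CD40L-KO arrays numbered 3, 4, 2 and 3 at days 32, 35, 39 and 75, and unexposed CD40L-KO arrays numbered 3 at day 32 and 5 labelled day 14. CD40L-KO mice lack CD40 ligand, through which helper T cells activate B cells and macrophages. Per the design text, day 32 was experiment 1, days 34 and 41 experiment 2, and days 7, 14 and 21 experiment 3. Experiment 4 held 4 exposed and 5 unexposed CD40L-KO mice, matched here to the arrays of day 35 and to the unexposed ones labelled day 14. The sources used here name none for days 39 and 75. Exposed and unexposed mice were housed in separate cages in experiments 1 to 3, so effects of cage and of exposure cannot be told apart.

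Type I collagen, built from the Col1a1 and Col1a2 chains, and type III collagen, from Col3a1, form the load-bearing fibrils around airways, vessels and alveoli, and type VI collagen forms beaded microfibrils between cells and fibrils. Elastin, laid on a microfibril scaffold, gives lung its recoil and is made mainly during lung growth by fibroblasts and smooth muscle cells. Ltbp4 binds both latent TGF-beta and elastic fibres and takes part in elastic fibre assembly, and osteoglycin is a small leucine-rich proteoglycan that binds collagen fibrils.

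The deposited intensities share 1 scale, and array medians lay between 35.5 and 46.4. Levels and differences are given on the log2(intensity + 8) scale unless an intensity is named, and the offset understates changes of dim probe sets. The number of arrays limits the precision, and differences carry a standard error (SE) and the adjusted p of limma, taken over 12421 probe sets with a threshold of 0.05. The lung markers Sftpc, a surfactant protein of alveolar type 2 cells, and Scgb1a1, of club cells, were at 12.38 or above and 12.18 or above on all arrays. Cd40lg, the deleted gene, lay between 3.05 and 3.75 on all arrays, near the floor of 3 set by the offset, so it does not check the strain labels. On 16 arrays markers of squamous epithelium stood out, with a mean score of at least 7.34 against at most 5.70 on the others. These were 3 of 10 exposed and 4 of 5 unexposed C57BL arrays of day 34, 1 of 3 exposed and 2 of 3 unexposed CD40L-KO arrays of day 32, and 6 others. In 17 arrays, all of those of days 35, 39 and 75 and of the unexposed CD40L-KO group labelled day 14, Y-linked Eif2s3y exceeded Xist, against the label of female mice. Because these are whole-tissue arrays, fewer cells of a type and less RNA per cell cannot be told apart.

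**Figure D1:**
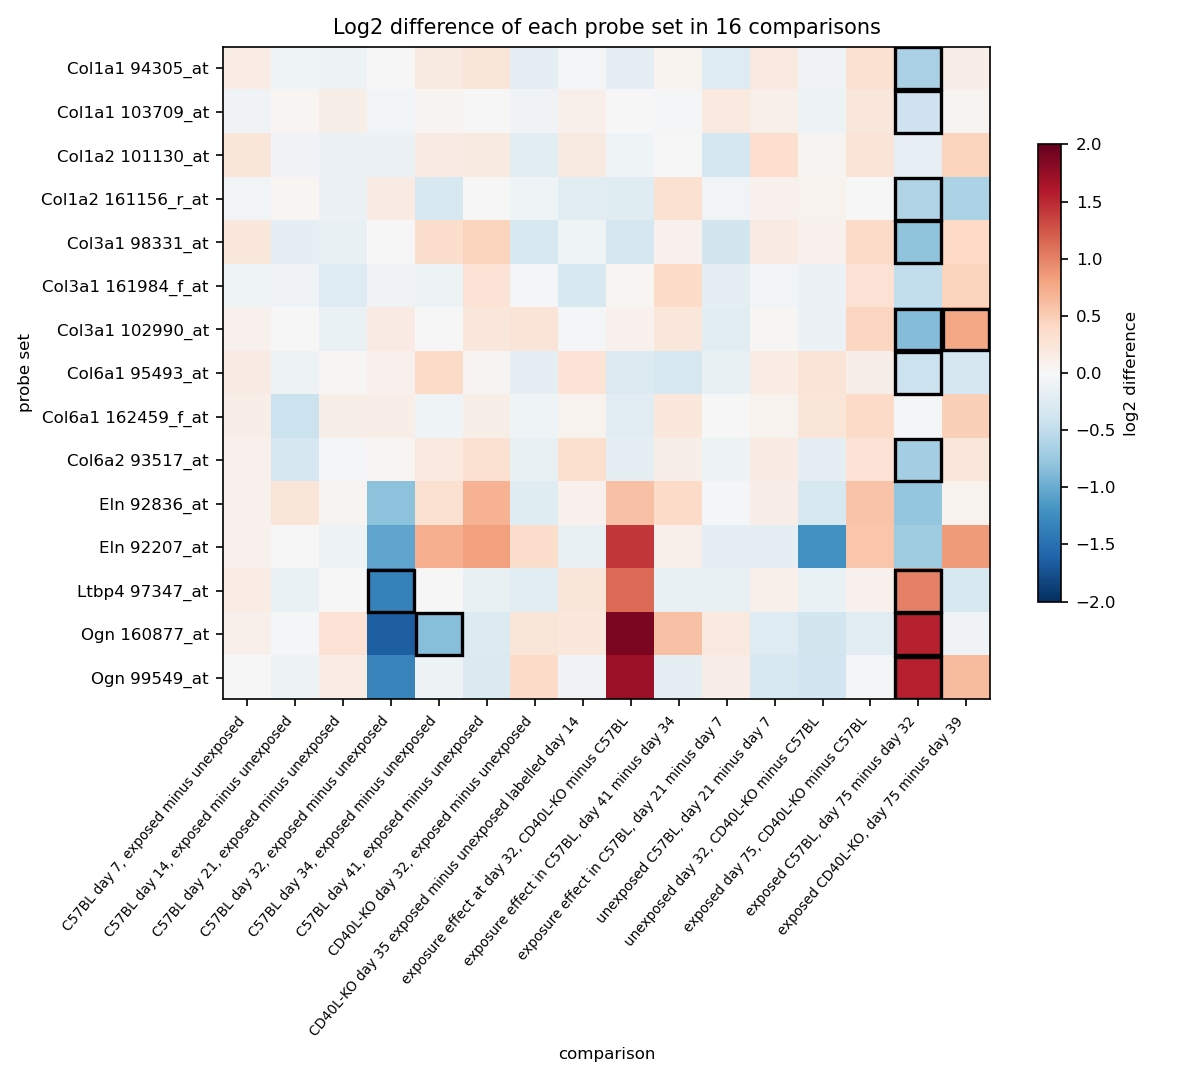
Log2 difference (colour) of each of the 15 probe sets (rows) in 16 comparisons (columns), with a black frame where limma's adjusted p was under 0.05. Frames sit on Ltbp4 at day 32, on 1 Ogn probe set at day 34, on 10 probe sets for day 75 minus day 32 in exposed C57BL lung and on 1 Col3a1 probe set for day 75 minus day 39 in exposed CD40L-KO lung.

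At day 32 in C57BL lung, Ltbp4 was lower in exposed than in unexposed mice, while the 10 collagen probe sets differed by at most 0.17 in either direction. Both Ogn probe sets lay lower in every exposed array without passing the test. Ltbp4 had intensities of 295, 489 and 389 on the 3 exposed arrays, against 1113 and 887 on the 2 unexposed arrays. The groups did not overlap. The difference was -1.36 (SE 0.21, adjusted p = 0.0209, limma), from means of 8.61 ± 0.36 in exposed (SD, n = 3) and 9.97 ± 0.23 in unexposed arrays (SD, n = 2). It was the only call among the 15 probe sets, where 1.22% of all probe sets were called and 0.185% were called lower.

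The brighter Ogn probe set had intensities of 157, 546 and 229 in exposed arrays, against 825 and 906 in unexposed arrays. The dimmer one had 91.8, 211 and 129 in exposed arrays, against 330.1 and 379 in unexposed arrays. Neither overlapped, among 5 of the 15 probe sets without overlap, and exposed replicate 2 was the highest of the exposed arrays on both. The share of all probe sets without overlap is not given here. The differences were -1.65 (SE 0.41, adjusted p = 0.0852) and -1.33 (SE 0.30, adjusted p = 0.0651). Without exposed replicate 2 they were -2.14 and -1.63 and both passed (adjusted p = 0.00233 and 0.00663, limma). The share of all probe sets called without that array is not given here.

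Eln had intensities of 2331, 1589.7 and 699 in exposed arrays, against 2078 and 2864 in unexposed arrays, on its brighter probe set. The groups overlapped, and exposed replicate 3 was lowest of the 5. The difference was -0.82 (SE 0.40, adjusted p = 0.373), with a 95% interval of -1.72 to 0.07, and that of the dimmer probe set was -1.06 (SE 0.42, adjusted p = 0.263). Col1a1 on its brighter probe set had 1072, 1077 and 904 in exposed arrays, against 994 and 1055 in unexposed arrays. These overlapped, and the difference of -0.01 had a 95% interval of -0.37 to 0.34. For the brightest Col3a1 probe set the difference of 0.02 had an interval of -0.42 to 0.45.

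Promoters are shown for Ltbp4 and Ogn, whose transcripts stood low together, and for Col1a2 and Col3a1, collagen genes that did not. RefSeq sequence of build GRCm38.p6 was matched by gene identifier for 6 of the 8 genes. The 250 bases before the start of 1 annotated transcript are printed in the direction of transcription. Capitals mark 3 motifs on either strand. TATAAA, the TATA box, was held by 12.4% of all 32851 promoters in windows of the same length. CCAAT, the CCAAT box, was held by 33.8%. The GC box GGGCGG was held by 32.7%.
Ltbp4, chr7:27337613-27337862, minus strand: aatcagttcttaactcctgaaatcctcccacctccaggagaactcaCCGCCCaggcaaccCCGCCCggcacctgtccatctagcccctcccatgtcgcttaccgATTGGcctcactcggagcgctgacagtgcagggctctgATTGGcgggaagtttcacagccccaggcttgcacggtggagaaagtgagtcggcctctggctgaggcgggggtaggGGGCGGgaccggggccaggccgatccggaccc
Ogn, chr13:49607765-49608014, plus strand: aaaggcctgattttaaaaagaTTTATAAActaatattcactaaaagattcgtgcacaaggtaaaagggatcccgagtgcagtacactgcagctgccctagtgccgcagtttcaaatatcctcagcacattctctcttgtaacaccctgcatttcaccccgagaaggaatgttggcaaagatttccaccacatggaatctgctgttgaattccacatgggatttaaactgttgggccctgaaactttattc
Col1a2, chr6:4505368-4505617, plus strand: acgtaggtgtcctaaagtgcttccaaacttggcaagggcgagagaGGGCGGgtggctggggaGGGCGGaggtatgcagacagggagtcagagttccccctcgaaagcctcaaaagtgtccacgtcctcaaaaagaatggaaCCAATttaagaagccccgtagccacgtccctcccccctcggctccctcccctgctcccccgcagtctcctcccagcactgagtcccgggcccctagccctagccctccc
Col3a1, chr1:45311288-45311537, plus strand: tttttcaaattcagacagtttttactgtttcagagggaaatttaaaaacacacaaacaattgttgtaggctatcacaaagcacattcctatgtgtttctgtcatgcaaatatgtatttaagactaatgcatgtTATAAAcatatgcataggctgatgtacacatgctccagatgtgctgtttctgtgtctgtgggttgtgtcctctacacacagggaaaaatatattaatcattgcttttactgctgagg

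The Ltbp4 window held 2 CCAAT boxes and 3 GC boxes, and Ogn's held 2 overlapping TATAAA matches at -229 and -227 from the start and neither of the other motifs. The 2 genes thus shared no motif of the 3 in these windows. Col1a2 held 1 CCAAT box at -109 and GC boxes at -205 and -188, and Col3a1 held TATAAA at -117 alone. Base composition differed as well, with 64.4% G and C for Ltbp4, 42% for Ogn, 62% for Col1a2 and 35.2% for Col3a1, against a median of 52.4% over all promoters. Ltbp4 has other annotated starts, whose windows held 5 and 7 GC boxes, no CCAAT box and no TATAAA, with 79.2% G and C each. A match is a description of letters and not of a site in use.

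Of 122 other matrix genes measured, from 8 lists, 3 were higher and 0 lower at day 32, and their median difference was -0.15, against 0.00 over all probe sets. The 3 genes were the macrophage elastase Mmp12, higher by 3.59 (SE 0.61), the protease inhibitor Timp1, higher by 1.88 (SE 0.37), and the cathepsin Ctss, higher by 1.38 (SE 0.26). Among 11 measured elastic fibre genes, which include microfibril proteins and the cross-linking enzyme Lox, 0 passed and 11 lay below zero, with a median of -0.27. In 8 other small leucine-rich proteoglycans 0 passed, with a median of -0.40. Decorin (Dcn), a proteoglycan that binds collagen fibrils, differed by -0.92 (SE 0.40, adjusted p = 0.315), and Sparc, a collagen-binding glycoprotein, by -0.76 (SE 0.17, adjusted p = 0.0636).

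Markers of other cells moved with these transcripts. In the macrophage and monocyte list 6 of 16 genes were higher and 0 lower, among them C1qc, a complement chain made by macrophages, at 1.80, and their summed intensity was 7763 to 13230 in exposed arrays, against 5409 to 5518 in unexposed arrays. Ctss is on this list and among the other matrix genes, so it is counted in both, here and in later comparisons. Lyz2 is likewise on this list and on the lung epithelium list. Of 13 fibroblast markers 1 passed, S100a4, higher by 1.91, and the list's summed intensity was 3918 to 5370 in exposed arrays, against 6343 to 6654 in unexposed arrays. The 12 cardiac muscle markers, which also mark the muscle sleeve of pulmonary veins in mice, lay below zero in 12 of 12 cases with a median of -1.66 and 0 calls. Their intensities summed to between 803 and 2815 on exposed arrays, against 3060 and 11330 on the 2 unexposed arrays. The 11 smooth muscle markers lay below zero in 11 cases, with 0 calls and summed intensities of 2411 to 3867 in exposed and 3889 to 4429 in unexposed arrays. With the mean smooth muscle level as a covariate, a choice made after seeing the data, Ltbp4 differed by -0.98 (adjusted p = 0.155). The part of the other cell types in the Ltbp4 and Ogn values was not tested. The Ltbp4 call was also lost without exposed replicate 3, without unexposed replicate 1 and without unexposed replicate 2 (adjusted p = 0.0778, 0.195 and 0.0826), at differences of -1.37, -1.19 and -1.52. It was lost as well with both tissue scores (-1.08, adjusted p = 0.429), without squamous arrays (-1.36, adjusted p = 0.111) and with the replicate block (-1.36, adjusted p = 0.0771).

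**Figure D2:**
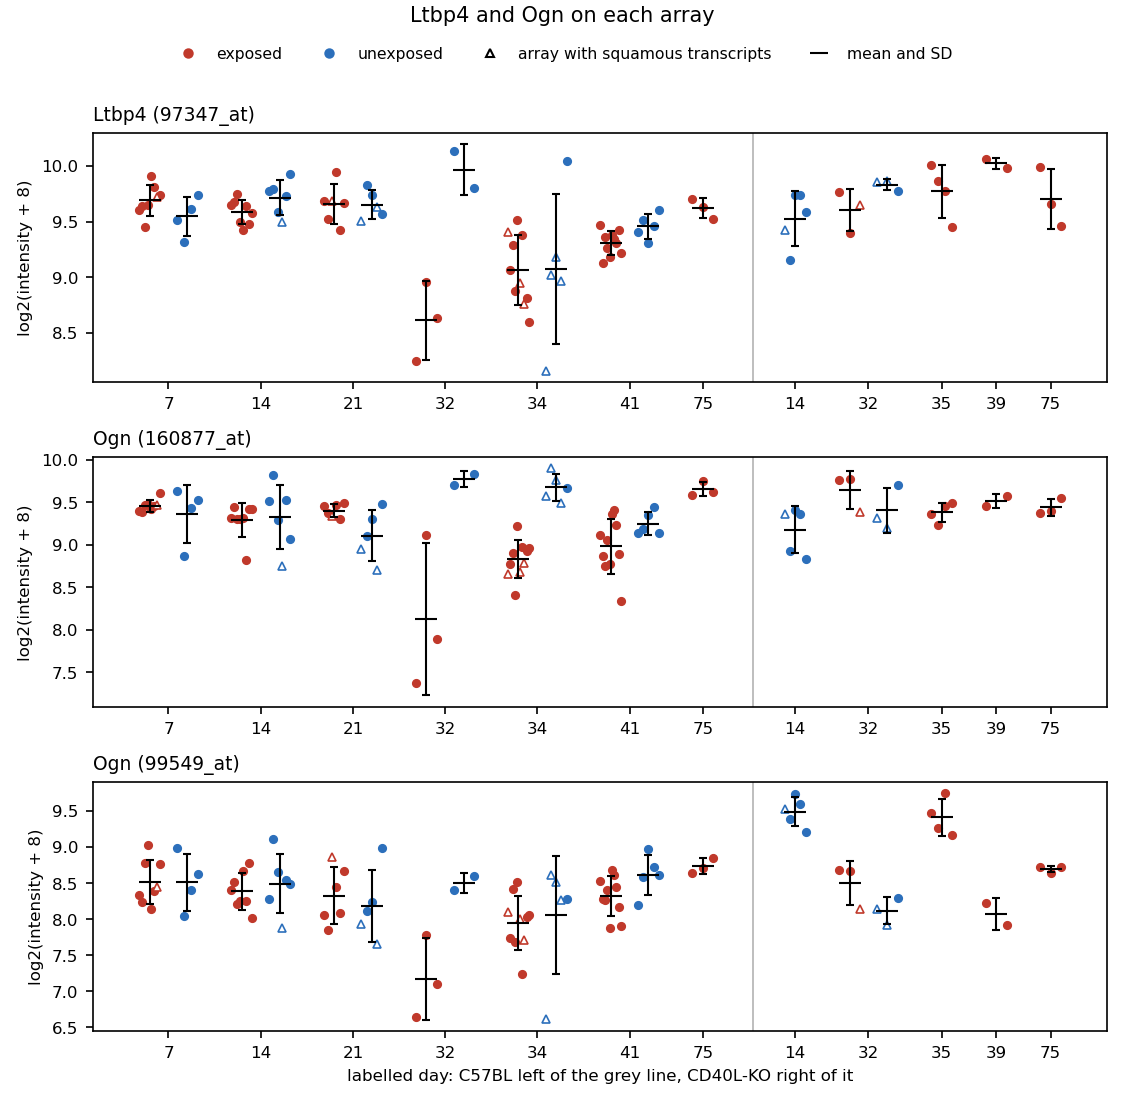
Levels of Ltbp4 and of both Ogn probe sets, as log2(intensity + 8), on each of the 95 arrays by labelled day, with exposed arrays in red left of unexposed arrays in blue, triangles for arrays with squamous transcripts, and bars for the mean and SD. The 3 exposed C57BL arrays of day 32 have the lowest group mean of all 19 groups on each probe set, 8.61, 8.12 and 7.17.

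In CD40L-KO lung at day 32, 0 of the 15 probe sets passed, where 0.37% of all probe sets did. Ltbp4 had intensities of 864, 665 and 796 in exposed arrays, against 917, 925 and 868 in unexposed arrays. The groups were close and did not overlap, and the difference was -0.23 (SE 0.19, adjusted p = 0.644). The brighter Ogn probe set had 863, 868 and 661 in exposed arrays, against 629, 579.6 and 826 in unexposed arrays. These overlapped, with a difference of 0.24 (SE 0.36, adjusted p = 0.817). The brightest Col3a1 probe set differed by -0.32 (SE 0.17, adjusted p = 0.440), with a 95% interval of -0.70 to 0.07. None of the 122 other matrix genes passed (0 higher, 0 lower), where 0.37% of all probe sets did. Squamous transcripts were on 1 of 3 exposed and 2 of 3 unexposed arrays, and the 16 skeletal muscle markers had 0 calls and a median of -1.43. Gapdh signal near the 3' end over that near the 5' end, which grows as RNA degrades, was 0.92 to 1.00 in exposed arrays. In unexposed arrays it was 1.16 to 1.37. The part of these in the values was not tested.

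Whether the strains differed in their response was tested as CD40L-KO minus C57BL. Here 0 of the 15 probe sets passed, where 0.153% of all did. The exposure effect on Ltbp4 differed by 1.13 (SE 0.29, adjusted p = 0.148). The effects on Ogn differed by 1.88 (SE 0.54, adjusted p = 0.190) and 1.71 (SE 0.40, adjusted p = 0.121). Without C57BL exposed replicate 2 all 3 passed, at 1.30, 2.38 and 2.01 (adjusted p = 0.0412, 0.0122 and 0.0178, limma). That array was the highest exposed C57BL array of day 32 on all 3 probe sets. The share of all probe sets called without it is not given here. The 3 effects also passed with 1 fit of all arrays, which takes the spread from all 19 groups and called 376 of all probe sets. The effects on collagen probe sets differed by -0.33 to 0.09. Between unexposed mice of day 32, CD40L-KO minus C57BL, 0 of 15 passed, where 0.0483% of all did, and the lowest difference was -1.21 (SE 0.42, adjusted p = 0.435) on the dimmer Eln probe set.

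At day 34 in C57BL lung, 1 of the 2 Ogn probe sets was lower in exposed mice, and the others did not pass. The brighter Ogn probe set had a lowest, median and highest intensity of 330.3, 451 and 589.5 in the 10 exposed arrays, against 751, 947, 858, 712 and 807 in the 5 unexposed arrays. All exposed arrays lay below all unexposed arrays. The difference was -0.85 (SE 0.14, adjusted p = 1.087e-04, limma), from means of 8.83 ± 0.22 in exposed (SD, n = 10) and 9.68 ± 0.16 in unexposed arrays (SD, n = 5). Of all probe sets 6.38% were called and 2.35% were called lower.

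The other Ogn probe set had 143, 251 and 358 as lowest, median and highest in exposed arrays, against 89.8, 384, 357, 299.4 and 302 in unexposed arrays. These overlapped, and unexposed replicate 1 was the lowest array of both groups. The difference was -0.11 (SE 0.23, adjusted p = 0.838), and without that replicate it was -0.47 (adjusted p = 0.134). Unexposed replicates 1 to 4 carried squamous transcripts. Without all squamous arrays 1 unexposed array was left, and the brighter probe set differed by -0.79 (adjusted p = 0.383). Against the unexposed arrays of days 34 and 41 together, also without squamous arrays, it differed by -0.44 (adjusted p = 0.111).

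Ltbp4 overlapped at day 34, with 377, 506 and 723 as lowest, median and highest intensity in exposed arrays, against 277 to 1047 in unexposed arrays. Its difference was -0.01 (SE 0.18), with a 95% interval of -0.37 to 0.35. Against the pooled unexposed arrays without squamous transcripts it was -0.48 and passed (adjusted p = 0.0386, limma). The brightest Col3a1 probe set had 498.7, 536 and 804 in exposed arrays, against 369, 440.0 and 542 in unexposed arrays, with overlap. It differed by 0.36 (SE 0.13, adjusted p = 0.0932), and by 0.47 against the pooled arrays, where it passed (adjusted p = 0.0402). The dimmer Eln probe set differed by 0.73 (SE 0.30, adjusted p = 0.134) and the brighter Col6a1 probe set by 0.38 (SE 0.17, adjusted p = 0.171). Both passed without unexposed replicate 5, at 0.93 and 0.56 (adjusted p = 0.0442 and 0.0192), the Eln probe set also without exposed replicate 2 (0.90, adjusted p = 0.0274), and the brighter Col1a1 probe set without unexposed replicate 1 (0.38, adjusted p = 0.0489). Squamous transcripts were on 3 of 10 exposed and 4 of 5 unexposed arrays. Gapdh signal near the 3' end over that near the 5' end, which grows as RNA degrades, ran between 0.90 and 3.02 on exposed and between 1.21 and 4.42 on unexposed arrays. In the macrophage and monocyte list 9 of 16 genes were higher, led by the complement chains C1qb (1.48) and C1qa (1.47), with Cd68, a lysosomal protein of macrophages, at 0.82. Their summed intensity was 6611 to 11616 in exposed arrays, against 5374 to 7421 in unexposed arrays. Of 13 fibroblast markers 1 was higher, S100a4 (1.03). The part of these in the Ogn and other values was not tested.

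Of the 122 other matrix genes 7 were higher and 7 lower at day 34, with a median difference of -0.02, against -0.03 over all probe sets. Proteases and inhibitors moved both ways, with 4 of 20 higher and 1 lower. Mmp12 rose by 2.38, Timp1 by 1.18, Ctss by 0.98 and Ctsk, a collagen-cleaving cathepsin, by 0.92, while Timp3, an inhibitor bound to matrix and named after its value was seen, fell by 0.54. In the TGF-beta list Tgfbi, a TGF-beta-induced matrix protein, rose by 1.00 and the ligand Tgfb2 fell by 0.42 among 20 genes. Among 29 matrix glycoproteins 3 fell: Sparc (-0.46), nephronectin (Npnt, -0.51) and Sparcl1 (-0.30). Of 13 basement membrane and network collagens 2 fell, Col8a1 (-0.41) and Col17a1 (-0.88), a collagen of epithelial hemidesmosomes. Plod3, a lysyl hydroxylase of collagen, rose by 0.46 as the only call of 11 processing genes, and Chad, a cartilage leucine-rich protein, rose by 0.65. Of 10 other fibrillar and FACIT collagens 0 passed, as did 0 of 11 elastic fibre genes.

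At day 41 in C57BL lung, 0 of the 15 probe sets passed, where 0.66% of all did, and Eln stood farthest apart. Its brighter probe set had 1803, 2493 and 3847 as lowest, median and highest intensity in the 10 exposed arrays, against 1158, 1342, 1560.4, 1789.8 and 1761 in the 5 unexposed arrays. All exposed arrays lay above all unexposed arrays. The difference was 0.69 (SE 0.18, adjusted p = 0.0852, limma), from means of 11.25 ± 0.34 in exposed (SD, n = 10) and 10.56 ± 0.27 in unexposed arrays (SD, n = 5), and it passed in 1 fit of all arrays (adjusted p = 0.0261). The dimmer Eln probe set differed by 0.83 (SE 0.30, adjusted p = 0.360) with overlap. The brightest Col3a1 probe set had 431, 542 and 747 in exposed arrays, against 343, 411 and 439 in unexposed arrays, with a difference of 0.44 (SE 0.13, adjusted p = 0.167). Ogn differed by -0.27 (SE 0.14) and -0.30 (SE 0.23), and Ltbp4 by -0.15 (SE 0.18).

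Only Ctss and Ctsk passed among the 122 other matrix genes at day 41, higher by 0.81 and 0.78. Of 16 macrophage and monocyte markers 3 were higher, and their summed intensity was 7270 to 9931 in exposed arrays, against 5356 to 6815 in unexposed arrays. The change of the exposure effect, day 41 minus day 34, passed for 0 of 15 probe sets, where 0.0564% of all passed. It was 0.58 (SE 0.19, adjusted p = 0.266) for the brighter Ogn probe set and 0.39 (SE 0.26, adjusted p = 0.617) for the brighter Eln probe set.

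**Figure D3:**
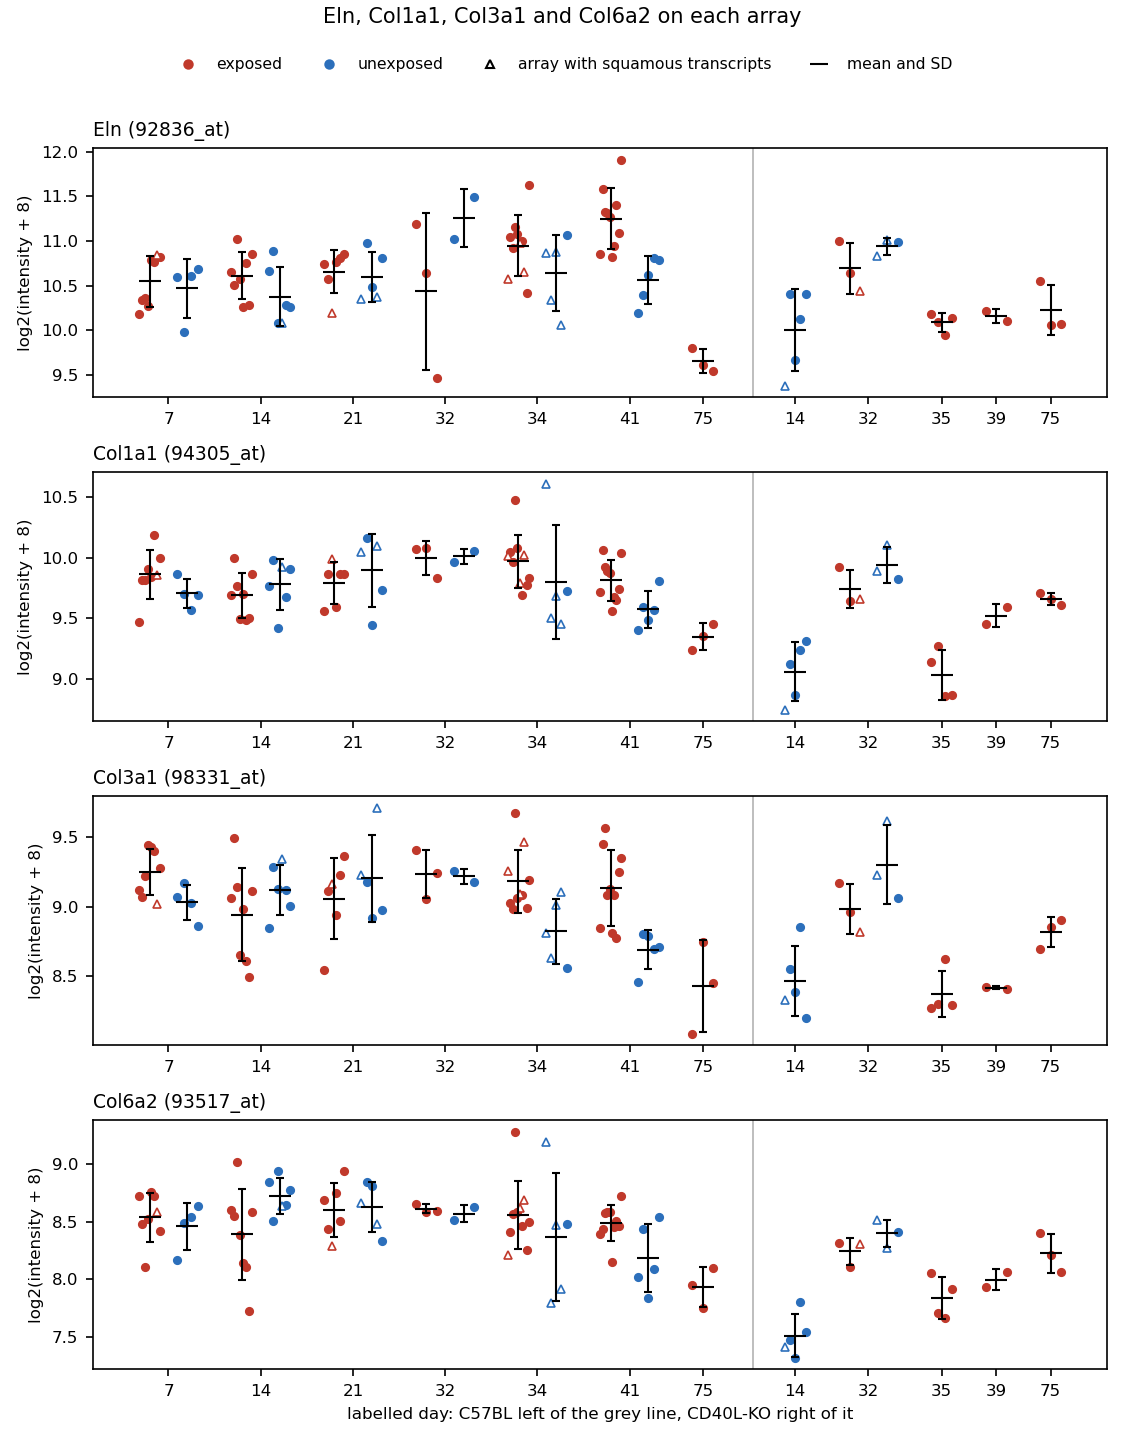
Levels of the brightest probe sets of Eln, Col1a1, Col3a1 and Col6a2, as log2(intensity + 8), on each of the 95 arrays by labelled day, with exposed arrays in red left of unexposed arrays in blue, triangles for arrays with squamous transcripts, and bars for the mean and SD. Exposed arrays of Eln at day 41 lie above all unexposed arrays of that day, and the lowest Col1a1 and Col6a2 means are in the CD40L-KO arrays of day 35 and of the group labelled day 14.

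Earlier in exposure the 15 probe sets differed little. At day 7 the differences lay between -0.09 and 0.24, at day 14 between -0.43 and 0.24 and at day 21 between -0.26 and 0.30, and the exposed and unexposed arrays overlapped on every probe set. In each comparison 0 of 15 passed, where 0%, 0.201% and 0% of all probe sets passed at days 7, 14 and 21. At an unadjusted p under 0.05 there were 1, 2 and 1 of the 15 and 820, 900 and 1308 of all probe sets in limma. Eln, for example, had a lowest, median and highest intensity of 1153, 1518 and 1834 in exposed arrays of day 7, against 1004, 1542 and 1644 in unexposed arrays. The dimmer Col6a1 probe set had the largest of these differences, -0.43 at day 14 (SE 0.13, adjusted p = 0.264). None of the 122 other matrix genes passed at any of the 3 days, 0 each. Between day 21 and day 7, 0 of 15 probe sets passed either in unexposed mice or for the exposure effect, where 0% of all did in both, with 1 of 15 at an unadjusted p under 0.05 in each.

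In CD40L-KO lung of experiment 4, day 35 exposed minus unexposed labelled day 14, 0 of the 15 passed, where 0.00805% of all did. The labelled days differ between the groups, so day and exposure cannot be told apart. The largest difference was 0.33 (SE 0.13, adjusted p = 0.501), on Col6a2. The brighter Col6a1 probe set differed by 0.28 (SE 0.10) and 1 Col3a1 probe set by -0.30 (SE 0.10), and neither passed.

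On these 9 arrays Col1a1, Col6a2, the brighter Col6a1 and the dimmer Col1a2 probe set were low next to the other 86. The other collagen probe sets overlapped more. Col1a1 on its dimmer probe set had intensities of 146 to 214 on them, against 243 to 1249.8 on the rest, with no overlap. Its brighter probe set had 421 to 629.6, and 1 of the 86 others lay below the highest of these. For the brighter Col6a1 probe set the range was 298 to 447, with 3 of 86 others below its top, and for Col6a2 it was 151 to 258, with 8 others below its top. On the brightest Col3a1 and brighter Col1a2 probe sets 24 and 25 of the others lay below the top of the 9, and on the other Col3a1 probe sets 68 and 69. For the dimmer Col1a2 probe set the number was 3 and for the dimmer Col6a1 probe set 18. The dimmer Ogn probe set went the other way, with 566 to 853 against 89.8 to 546.5 and no overlap. The brighter Ogn probe set, at 447 to 709 against 157 to 947, did overlap, so the 2 Ogn probe sets disagreed. These values are a description with no test. The other 86 arrays hold 11 CD40L-KO arrays and 8 with Eif2s3y above Xist. The share of all probe sets without overlap between the 9 arrays and the rest is not given here.

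Other measures also stood apart on these 9 arrays. The 8 lung epithelium markers summed to between 33934 and 43163, against 17963 to 61302 on the other 86, of which 3 reached the lowest of the 9. The 13 fibroblast markers summed to between 7155 and 9235, against 3918 to 7567, with 2 others reaching the lowest of the 9. Array medians were 35.5 to 39.4, against 38.6 to 46.4, and 9 others lay at or below the highest of the 9. The part of these, and of other differences between experiments, in the collagen and Ogn levels was not tested.

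Across the 19 groups, the order of means placed most groups with Eif2s3y above Xist at the low end for fibrillar collagens and elastin. Of those 5 groups, 5 were the 5 lowest for the brighter Eln probe set and 5 for the dimmer Col1a1 probe set. For the brightest probe sets of Col1a1, Col1a2, Col3a1, Col6a1 and Col6a2 the number was 4 each, while for Ltbp4 it was 0. The number was also 4 for the dimmer Col1a2 and middle Col3a1 probe sets. For the dimmest Col3a1 and dimmer Eln probe sets it was 3, and for the dimmer Col6a1 probe set 2. For each Ogn probe set it was 1, with 4 of the 5 groups among the 5 highest on the dimmer. On both Col1a2 probe sets and the dimmer Eln and Col6a1 probe sets 1 group was among the 5 highest. How many of all probe sets show such an order is not given here. Eln ranged from 9.65 ± 0.13 in exposed C57BL arrays of day 75 (SD, n = 3) to 11.26 ± 0.33 in unexposed C57BL arrays of day 32 (SD, n = 2). Ltbp4 ranged from 8.61 ± 0.36 in exposed C57BL arrays of day 32 (SD, n = 3) to 10.02 ± 0.05 in exposed CD40L-KO arrays of day 39 (SD, n = 2). Neighbours in the order overlapped in all 18 pairs for Eln's brighter probe set and for Ltbp4.

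Exposed C57BL lung of day 75 set against that of day 32 gave the most calls, 10 of the 15 probe sets, where 14.8% of all probe sets were called. Collagens were lower at day 75, with 7 of 10 collagen probe sets called lower, where 7.56% of all were. Ltbp4 and both Ogn probe sets were higher, where 7.2% of all were called higher. Col1a1 on its brighter probe set had 596, 647 and 694 at day 75, against 1072, 1077 and 904 at day 32. Col3a1 on its brightest probe set had 264, 422 and 342 at day 75, against 668, 523 and 596 at day 32. Col6a2 had 239.5, 207 and 266 at day 75, against 395, 376 and 377 at day 32. The days did not overlap on any of these 3, among 11 of the 15 probe sets without overlap. The share of all probe sets without overlap is not given here. The differences were -0.65 (SE 0.12, adjusted p = 0.00248) for Col1a1, -0.80 (SE 0.17, adjusted p = 0.00589) for Col3a1 and -0.68 (SE 0.13, adjusted p = 0.00221) for Col6a2, in limma.

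Probe sets of 1 gene did not always pass together. The dimmer Col1a1 probe set fell by 0.41 (adjusted p = 0.0254) and the brighter Col6a1 probe set by 0.43 (adjusted p = 0.0170). Of the Col1a2 probe sets the dimmer fell by 0.59 (adjusted p = 0.0193), while the brighter differed by -0.16 (SE 0.13, adjusted p = 0.467). The dimmer Col1a1 call was lost without day 32 replicate 1 or 2 (adjusted p = 0.0757 and 0.0798, limma). It was also lost without day 75 replicate 1 or 3 (adjusted p = 0.109 and 0.0763). Without day 32 replicate 2 or day 75 replicate 1 or 3 the brighter Col6a1 and dimmer Col1a2 calls were lost. Their adjusted p then lay between 0.0525 and 0.102. With 1 fit of all arrays the dimmer Col1a1 and brighter Col6a1 calls were lost (adjusted p = 0.24 and 0.091). The other Col3a1 probe sets differed by -0.48 (adjusted p = 0.0705) and -0.87 (adjusted p = 0.00256), and the dimmer Col6a1 probe set by -0.02. Eln had 886, 775 and 739 at day 75, against 2331, 1589.7 and 699 at day 32, with overlap at the low replicate 3 of day 32. Its difference was -0.78 (SE 0.31, adjusted p = 0.108), and without that array -1.26 (adjusted p = 0.00303).

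Ltbp4 had 825, 787 and 728 at day 75, against 295, 489 and 389 at day 32, a difference of 1.01 (SE 0.18, adjusted p = 0.00147). Ogn had 763, 854 and 781 on its brighter probe set at day 75, against 157, 546 and 229 at day 32, a difference of 1.53 (SE 0.30, adjusted p = 0.00302). The dimmer Ogn probe set differed by 1.56 (SE 0.22, adjusted p = 4.197e-04). The days did not overlap on these 3 probe sets, which are also among the 11 of 15 without overlap. The exposed arrays of day 32 are the same ones that stood low against the unexposed arrays of day 32, so the comparisons share them.

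**Figure D4:**
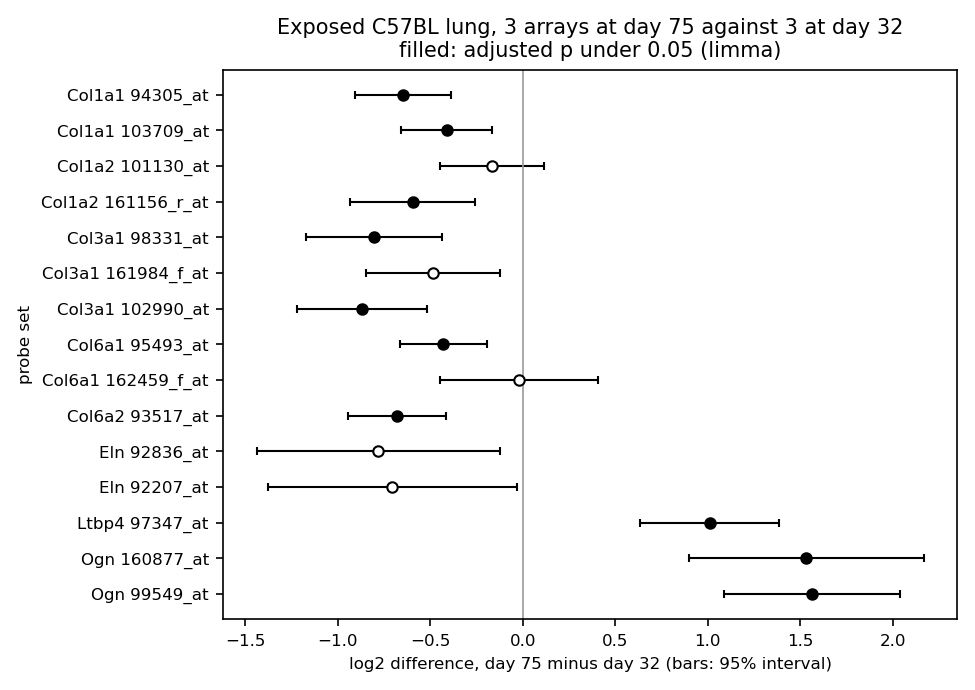
Log2 difference, day 75 minus day 32 in exposed C57BL lung (horizontal axis), of each of the 15 probe sets, as points with 95% intervals; filled points passed limma's adjusted p of 0.05. Collagen points lie at or below -0.02, down to -0.87, and Ltbp4 and Ogn points lie between 1.01 and 1.56.

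Of the 122 other matrix genes 12 were higher and 14 lower at day 75, with a median difference of 0.04. Of 10 other fibrillar and FACIT collagens 2 were lower, Col5a2 (-0.66) and Col9a2 (-0.63), and of 13 basement membrane and network collagens 2 were lower, Col4a4 (-0.95) and Col18a1 (-0.45). Proteoglycans split, with Dcn higher by 1.27 and biglycan (Bgn) lower by 0.43. Of 29 glycoproteins 7 rose, led by tenascin X (Tnxb, 1.02), Npnt (0.99), vitronectin (Vtn, 0.86) and Sparcl1 (0.59), and fibronectin (Fn1) fell by 0.44. Lower proteases and inhibitors were Mmp12 (-2.69), Timp1 (-1.79) and Ctsk (-1.07), and Reck, a membrane inhibitor of metalloproteinases, rose by 1.28. In the TGF-beta list the receptor Tgfbr1 (-0.90), Tgfbi (-1.42) and the ligand Tgfb1 (-0.50) were lower, and the inhibitory Smad7 rose by 0.80. Tgfbr1 (means of 3.20 at day 75 and 4.11 at day 32) and Col4a4 (3.80 and 4.76) were dim, near the floor of 3.

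Day 75 and day 32 also differed in cell markers and RNA quality. Of 16 macrophage and monocyte genes 10 were lower, with a summed intensity of 5731 to 6104 at day 75 and 7763 to 13230 at day 32. Of 13 fibroblast markers 3 were higher, among them Dpt (0.91), and 2 were lower, S100a4 and Thy1, with summed intensities of 5539 to 5841 at day 75 and 3918 to 5370 at day 32. The 12 cardiac markers had 0 calls, a median of 1.06 and summed intensities of 2936 to 4344 at day 75 and 803 to 2815 at day 32. The Gapdh ratio was 1.10 to 1.20 at day 75 and 0.93 to 1.03 at day 32, and with it as a covariate 3 of the 15 probe sets passed, Col6a2 (-0.76), Ltbp4 (0.98) and the dimmer Ogn probe set (1.49). Over all probe sets 1833 calls became 401 with this covariate, and of the 7 collagen calls 1 remained. The other 6 kept their direction, at -0.59 and -0.48 for Col1a1, -0.71 for the dimmer Col1a2, -0.44 and -0.85 for the brightest and dimmest Col3a1 and -0.44 for the brighter Col6a1 probe set. All arrays of day 75 and none of day 32 had Eif2s3y above Xist, so day, that signal and any difference between experiments cannot be told apart. Their part was not tested.

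Between strains at day 75, CD40L-KO minus C57BL, 0 of the 15 passed, where 0.66% of all did, and 12 of 15 differences were above zero with a median of 0.29. Col1a1 had 831, 799.6 and 773 in CD40L-KO arrays, against 596, 647 and 694 in C57BL arrays. These did not overlap, and the difference was 0.31 (SE 0.12, adjusted p = 0.901), with a 95% interval of 0.05 to 0.57. Within CD40L-KO mice, day 75 minus day 39, 1 of 15 passed, where 2.13% of all did and 1.47% were called higher. The dimmest Col3a1 probe set had 45.3, 53.8 and 54.6 at day 75, against 24.3 and 29.0 at day 39, a difference of 0.77 (SE 0.18, adjusted p = 0.0427). The days did not overlap on 10 of the 15 probe sets, this one among them. The share of all probe sets without overlap is not given here. The Col3a1 call was lost when any of the 5 arrays was left out (adjusted p = 0.0580 to 0.235). The dimmer Col1a2 probe set had the lowest difference, -0.63 (SE 0.18, adjusted p = 0.0733). Of the 122 other matrix genes Col5a2 and Ctsk were higher, by 0.73 and 1.32, and the endothelial TGF-beta receptors Eng and Acvrl1 were lower (-0.93 and -0.76). Of 16 macrophage and monocyte markers 2 were higher, Marco (1.66) and Mrc1 (1.00), and of 8 lung epithelium markers Sftpc was lower (-0.68). Cardiac markers had 0 calls and summed intensities of 1743 to 3638 at day 75 and 5800.1 to 6352 at day 39. The Gapdh ratio was 1.10 to 1.21 at day 75 and 1.32 to 1.42 at day 39, and with it as a covariate the 264 calls over all probe sets became 1 and none was among the 15. The part of these in the Col3a1 value was not tested.

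Within groups, the median correlation was higher among the collagens than between a collagen and Ltbp4 or Ogn, though over all 95 arrays the ranges overlapped. After the mean of each group was taken off, the brightest probe sets of Col1a1 and Col1a2, which are chains of 1 trimer, had a Pearson r of 0.60 over 95 arrays. Col1a1 with Col3a1 had 0.48 and Col1a2 with Col3a1 0.50. Over the 10 pairs among the 5 collagens r ran from 0.09 to 0.60, with a median of 0.32. For the 5 pairs of Eln with a collagen it ran from 0.07 to 0.40, with a median of 0.38. Over the 10 pairs of Ltbp4 or Ogn with a collagen it ran from -0.29 to 0.54, with a median of -0.11. The highest of these, Ltbp4 with Col6a1, was 0.54 over all arrays and 0.29 over 77 arrays. These are the 79 without squamous transcripts, less the only such array of 2 groups. Over these 77 arrays r among the collagens ran from 0.34 to 0.62, with a median of 0.45. For Ltbp4 or Ogn with a collagen it ran from -0.25 to 0.29, with a median of -0.08, so these ranges did not overlap. Ltbp4 with Ogn had 0.26 and, over those 77 arrays, 0.34. Probe sets of the same gene had 0.60 for Ogn, 0.56 for Eln, 0.30 for Col1a1 and 0.14 for Col1a2. For Col6a1 it was -0.27, so its probe sets cannot be read as 1 measure. These correlations are descriptions: the arrays share scaling and tissue content.

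The genes most like the members in this sense differed by member. For the mean of Col1a1, Col1a2 and Col3a1 over the 77 arrays these were Col5a2 (r of 0.66), Col6a3 (0.63), Col5a1 (0.49), the laminin chain Lama4 (0.47) and Ctsz (0.46). Over all 95 arrays they were Clec11a (0.51), Fndc1, Lgals1, Mdk and C1qb. For Eln over all arrays they were Muc1 (0.64), Napsa, Pld3, Bgn and Hic1, and over the 77 arrays Pld3 (0.63), Muc1 (0.61), Col5a2 (0.60), Napsa (0.56) and Mfap4 (0.50). For Ltbp4 over all arrays they were Rasip1 (0.70), Kank3, Csnk1d, Mapk14 and Tspan9, of which Rasip1 (0.61) alone was among the 5 over the 77 arrays, with Mapk12 (0.69), Tns2 (0.67), Gsn (0.64) and Pltp (0.60). For Ogn over all arrays they were Inmt (0.68), Rnase4, Bex4, Myzap and Limch1, and over the 77 arrays Rnase4 (0.70), Map3k6 (0.68), Bex4 (0.67), Plpp3 (0.67) and Inmt (0.67).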

How the data were processed

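Per the labels' protocols, biotin-labelled RNA made from lung total RNA was hybridised to Affymetrix arrays. In the deposited matrix each value is a linear intensity, brought by the authors to 1 mean for all arrays, 100.05 to 100.07 after 2% is trimmed at each end. How probes were summarised is not given here. No intensity was rescaled here. Values were analysed as log2(intensity + 8) with lmFit and eBayes of limma 3.58.1 (R 4.3.3) over 12421 probe sets, leaving out 65 controls and 1 with a missing value. P-values were adjusted by Benjamini-Hochberg over all of them. Groups came from the labels, and groups of 1 experiment, or the 7 groups of days 32, 39 and 75, shared a fit. GEO's platform annotation, which can be old, named 10855 probe sets with 1 symbol, 396 with several and 1236 with none. Replicates are separate arrays; where no label says that they are separate mice, p-values measure the spread between arrays.

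The genes, the lists, the tests and the squamous score (mean of 9 markers, threshold 7) were chosen with earlier results of these data known. Named were every probe set of the 8 genes, called brighter or dimmer by their mean, up to 4 called genes of a list by p, a short list of marker and matrix genes, and the 5 genes with the highest r. Alternatives were offsets of 2 and 32, a minimum mean intensity of 20, quantile normalization, 1 fit of all arrays, a replicate block, tissue scores and the Gapdh ratio as covariates, leaving out squamous arrays, the same with the unexposed arrays of days 34 and 41 pooled, and leaving out each array. The smooth muscle covariate was added after seeing the data. The fits were tested on simulated data. Tables used Python 3.11.15.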

Additional observations from a re-analysis of the deposited data

Results flagged for a closer look

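Within groups of 4 to 10 arrays, 15 of 180 combinations of probe set and group had a single array far from the others by Dixon's criterion, where chance gives about 1 in 20. Of these, 5 were arrays with squamous transcripts, all of them unexposed C57BL replicate 1 of day 34. That array was highest in its group for the brighter Col1a1 probe set (10.61, next 9.73), the dimmer Col1a2 probe set (9.24, next 8.13), the dimmest Col3a1 probe set (6.8, next 6.14) and the dimmer Col6a1 probe set (7.64, next 6.67), and lowest for the dimmer Ogn probe set (6.61, next 8.26). It also had the highest Gapdh ratio (4.42) and lung epithelium sum (61302) of all arrays. Among exposed C57BL arrays of day 34, replicate 2 was highest for the dimmer Col1a1 probe set (10.3, next 8.75) and the dimmer Col1a2 probe set (8.53, next 7.93), and replicate 4 for the brighter Col1a1 probe set (10.47, next 10.08) and Col6a2 (9.28, next 8.68). Exposed replicate 2 of day 34 had a Gapdh ratio of 3.02, the highest of its group. The part of RNA quality in these values was not tested. Exposed replicate 2 of day 41 was highest for the middle Col3a1 probe set, at 7.58. In CD40L-KO arrays, exposed replicate 3 of day 35 was highest for the brightest Col3a1 probe set, at 8.63, and unexposed replicate 4 of the group labelled day 14 for the dimmer Col6a1 probe set, at 6.71. Unexposed C57BL replicate 2 of day 7 was lowest for the brighter Eln probe set, at 9.98. For the brighter Ogn probe set, exposed replicate 6 of day 14 was lowest, at 8.82, and exposed replicate 8 of day 7 highest, at 9.61.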

How the results depend on the processing

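Counts below are of the 15 probe sets that passed; the cause of each change was not tested unless the alternative's own construction shows it. At day 32 in C57BL lung the count of 1 became 2 with the offset of 32 and 2 without dim probe sets, 3 with 1 fit of all arrays, and 0 with both tissue scores, without squamous arrays (fewer arrays) and with the smooth muscle covariate. At day 34 the count of 1 became 3 with 1 fit of all arrays, 0 without squamous arrays, which left 1 unexposed array assumed to vary like the other groups, and 2 with a joint control of both days (34 and 41) that also dropped the squamous arrays, where Col3a1 and Ltbp4 passed and Ogn did not. With 1 fit of all arrays the count became 1 at day 41 and 3 for the strain difference in exposure effect at day 32. For day 75 minus day 32 in exposed C57BL lung 10 became 3 with the Gapdh ratio. For day 75 minus day 39 in exposed CD40L-KO lung 1 became 2 with the offset of 32 and without dim probe sets, and 0 with quantile normalization, 1 fit of all arrays, both tissue scores, the Gapdh ratio and the smooth muscle covariate. Same-numbered arrays had median correlations of deviations of -0.06, -5e-04, -0.02 and -0.02 in experiments 1 to 4, so the numbers were not taken to pair the arrays; with the replicate block the count was 0 at day 32 in C57BL lung and 0 for day 75 minus day 39 in exposed CD40L-KO lung, and no other count moved past 1.5 times.

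Leaving out 1 array at a time gave 0 to 3 calls at day 32 in C57BL lung, 1 to 3 at day 34, 0 to 3 for the strain difference in effect at day 32, 7 to 12 for day 75 minus day 32 and 0 for day 75 minus day 39, and 0 in each other comparison. Leaving out an array changed the side of the threshold in 29 of 2730 single values, and other settings in 41 of 2670; none changed the sign of a called value. Counts over all probe sets moved more: 152 calls at day 32 became 0 with both tissue scores and 874 with 1 fit of all arrays, 793 at day 34 became 15 without squamous arrays and 1607 with 1 fit, 82 at day 41 became 52 to 163, and 1833 for day 75 minus day 32 became 401 with the Gapdh ratio. The 46 calls in CD40L-KO lung at day 32 became 0 to 176, the 19 strain differences in effect 0 to 376, the 7 of day 41 minus day 34 2 to 214, the 6 between unexposed strains 0 to 41 and the 264 of day 75 minus day 39 1 to 503; the 25 of day 14 became 10 to 51 and the 1 of day 35 0 to 26. With 2 unexposed arrays at day 32 and 2 arrays at day 39, precision is limited by the number of arrays.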

Other observations

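In the 9 groups that held arrays with squamous transcripts and others, the brighter Eln probe set was lower on squamous arrays in 8 groups and higher in 1, with a median difference of -0.39. The dimmer Eln probe set was lower in 5 and higher in 4, with a median of -0.03, and the dimmer Ogn probe set was lower in 7 and higher in 2, with a median of -0.26. Col1a1 on its brighter probe set was higher in 5 and lower in 4, with a median of 0.08, while its dimmer probe set, the brighter Col1a2 probe set and Col6a2 were each lower in 7 and higher in 2. These are values with no test.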
